A study of Mus musculus with 6 samples.

Results

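The 7 inhibitors of the cyclin-dependent kinases (CDKs) and the lamin gene Lmnb1 were followed in primary mouse chondrocytes, the matrix-making cells of cartilage, after knockdown of Pkm2. The genes were taken by symbol from the deposited table and are 8 of its 55416 genes: Cdkn1a, Cdkn1b and Cdkn1c of the Cip/Kip family, Cdkn2a, Cdkn2b, Cdkn2c and Cdkn2d of the INK4 family, and Lmnb1. The control group (siNC, n = 3 libraries) was wild type by its labels and received a control siRNA, and the knockdown group (siPkm2, n = 3 libraries) received an siRNA against Pkm2, which encodes the M2 form of pyruvate kinase. Both groups were kept in DMEM/F12 with 10% serum, and the labels name no other agent, no siRNA dose and no time of harvest. The labels give knee joints of neonatal mice as the source, whereas the supplementary methods describe chondrocytes of adult mice. The genotype labels of siPkm2 replicates 2 and 3 name other PKM numbers, and these libraries were placed in siPkm2 by their titles. By the title of the series, the comparison asks what PKM2 does to cell senescence and to inflammation in osteoarthritis.

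Cells leave the division cycle when CDKs are held inactive. The INK4 proteins bind CDK4 and CDK6 and keep them from the D-type cyclins, while the Cip/Kip proteins bind complexes of cyclins with CDKs and mainly block CDK2. In both cases the retinoblastoma protein stays unphosphorylated and E2F target genes stay silent. Cdkn2a also makes p19Arf from another first exon, a protein that holds back Mdm2 and so stabilises p53, and p53 in turn activates Cdkn1a, which encodes p21. High p16Ink4a and p21 and low lamin B1 are widely used marks of senescent cells, including aged chondrocytes.

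Libraries were paired by the replicate number of their titles, since libraries with the same number deviated together from their group means. Each change was therefore estimated by edgeR's quasi-likelihood test without the number (unpaired fit) and with the number as a block (paired fit), with Benjamini-Hochberg adjustment over 15269 genes. The targeted gene stood at 1654, 2209 and 1293 TPM (transcripts scaled to a common total, a level per length of transcript) in siNC replicates 1, 2 and 3, and at 245, 428 and 231 TPM in siPkm2. Pkm had a log2 fold change of -2.51 (SE 0.33, adjusted p = 0.0738) in the unpaired fit of edgeR and fell by 2.53 on the log2 scale (SE 0.13, adjusted p = 0.00932) in the paired fit. Counts per gene do not separate the M1 and M2 forms. Total counts were 22317065 to 25691096 per library. Replicate 2 of both groups stood apart from the other libraries, with Col2a1, the main collagen of cartilage, at 3015 and 3847 TPM against 8902 to 11904 TPM elsewhere, and with the cytokine gene Il6 at 65.0 and 160.3 TPM against 0.240 to 12.9 TPM. Results are given with and without this replicate where it matters.

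The sequences that bear on the largest changes are those at the neighbouring genes Cdkn2a and Cdkn2b, which both went down, and at Cdkn1a, which went up. In GRCm38, Cdkn2a lies at chr4:89274471-89294653 and Cdkn2b at chr4:89306299-89311039, both on the minus strand and 11645 bases apart. Cdkn2a has 2 start sites, 1 for p19Arf (upstream) and 1 for p16Ink4a, and the deposited gene count does not separate their transcripts. Cdkn1a lies at chr17:29090976-29100727 on the plus strand. The windows below hold 250 bases before and 50 after a start site as given by RefSeq on GRCm38.p6, at chr4:89294570-89294869 (p19Arf), chr4:89282143-89282442 (p16Ink4a), chr4:89310983-89311282 (Cdkn2b) and chr17:29090729-29091028 (the upstream start of Cdkn1a). They are written from 5′ to 3′ on the strand of the gene. Capitals mark GC boxes (GGGCGG, either strand), CCAAT boxes (CCAAT, either strand, 1 of them overlapping a GC box) and, in Cdkn1a, a p53 response element.
Cdkn2a p19Arf start: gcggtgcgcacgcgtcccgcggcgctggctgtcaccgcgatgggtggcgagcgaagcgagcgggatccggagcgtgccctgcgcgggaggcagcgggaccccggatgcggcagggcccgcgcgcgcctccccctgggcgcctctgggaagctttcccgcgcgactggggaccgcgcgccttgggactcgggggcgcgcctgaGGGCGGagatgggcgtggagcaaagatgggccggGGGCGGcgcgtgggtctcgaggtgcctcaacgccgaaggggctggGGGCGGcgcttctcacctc
Cdkn2a p16Ink4a start: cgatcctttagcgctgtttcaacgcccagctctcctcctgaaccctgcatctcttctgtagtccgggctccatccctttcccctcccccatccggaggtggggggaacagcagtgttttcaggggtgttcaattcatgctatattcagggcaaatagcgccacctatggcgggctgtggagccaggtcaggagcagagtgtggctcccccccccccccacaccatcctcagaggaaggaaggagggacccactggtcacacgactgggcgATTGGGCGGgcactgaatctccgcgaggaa
Cdkn2b start: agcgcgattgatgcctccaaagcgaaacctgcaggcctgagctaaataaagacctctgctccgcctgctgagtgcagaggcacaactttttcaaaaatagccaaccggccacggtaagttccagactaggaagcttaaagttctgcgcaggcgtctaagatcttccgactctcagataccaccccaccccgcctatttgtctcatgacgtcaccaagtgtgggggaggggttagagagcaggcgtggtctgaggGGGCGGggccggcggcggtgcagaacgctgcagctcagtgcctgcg
Cdkn1a upstream start: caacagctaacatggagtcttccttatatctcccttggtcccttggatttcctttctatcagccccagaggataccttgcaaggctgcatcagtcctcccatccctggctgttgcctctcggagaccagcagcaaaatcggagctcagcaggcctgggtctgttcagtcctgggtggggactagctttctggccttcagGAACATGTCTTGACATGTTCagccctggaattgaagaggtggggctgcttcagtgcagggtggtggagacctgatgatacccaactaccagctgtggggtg

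The p19Arf window held 3 GC boxes and was 77.0% G or C, the p16Ink4a window held 1 GC box and 1 CCAAT box at 60.3%, and the Cdkn2b window held 1 GC box at 57.7%. These motifs are common: among 32851 RefSeq promoter windows of this length, 35.66% held a GC box and 37.41% a CCAAT box. The 20-base p53 element of Cdkn1a lay at chr17:29090928-29090947, 31 bases before the start, with 1 mismatch to the consensus, and elements with at most 1 mismatch were found in 0.09% of the windows. The allowance of 1 mismatch was set after the stricter search had missed this element. Neither E2F sites (TTTCGCGC or TTTGGCGC, either strand, in 0.32% and 0.51% of all windows) nor TATA boxes (TATAAA, either strand, 13.62%) occurred in any of the 9 windows of the 6 inhibitor genes that the RefSeq table held. Cdkn1c and Lmnb1 had no window in it. The interferon response element, found in 3.44% of all windows, was also absent from the 9 windows, those of Cdkn1a among them. The p53 element was absent from the downstream Cdkn1a window at chr17:29093519-29093818 and from the windows of the other genes.

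The siRNAs also carry sequence that could pair with other transcripts at the seed (bases 2 to 8 of the guide strand, in capitals). The study's supplement lists 3 duplexes and names #3 as the one selected, and no number is tied to the sequenced cultures.
siPkm2 #1 guide: aUGGUACAaaugaugccagtt
siPkm2 #2 guide: aCAUUCUUgauggucucugtt
siPkm2 #3 guide: uGUUUCUCcagacagcaugtt

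In the longest annotated 3′ untranslated region (GENCODE M21, GRCm38), the 7-base match to guide #3 was present once in Cdkn2a, at chr4:89274549-89274555 in the last exon that both of its transcripts share, and once in Cdkn1c. A match to guide #1 occurred in Cdkn1c and a match to guide #2 in Cdkn1b, and Cdkn1a, Cdkn2b, Cdkn2c, Cdkn2d and Lmnb1 had none there. The sites are shown with 11 bases on either side and the match in capitals.
Cdkn2a, guide #3: aggaatggcatGAGAAACtgagcgaaggc
Cdkn1c, guide #3: caaaacaaaaaGAGAAACtagaaaatgta
Cdkn1c, guide #1: tgagaacactcTGTACCAtgtgcaaggag
Cdkn1b, guide #2: tccctttcggtAAGAATGgatcctttatt
Such matches occurred in 17.8% of 13269 tested genes for guide #3, in 11.7% for guide #1 and in 17.4% for guide #2. The part of these sites in the changes below was not tested.

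Cdkn2a had the largest change of the 8 genes. Its level in siNC replicates 1, 2 and 3 was 42.2, 39.5 and 40.9 TPM, and in siPkm2 it was 3.18, 10.9 and 7.88 TPM. The groups did not overlap, and the control libraries lay within 1.07-fold of each other, also in replicate 2, which stood apart for other genes. Means were 40.9 ± 1.35 TPM in siNC and 7.32 ± 3.89 TPM in siPkm2 (SD, n = 3), so that 17.9% of the transcript was left. The counts behind these levels were 479, 380 and 371 against 30, 113 and 72. In the unpaired fit of edgeR the log2 fold change was -2.48 (SE 0.42, adjusted p = 0.0966), and in the paired fit Cdkn2a fell by 2.54 on the log2 scale (SE 0.38, 95% interval -3.50 to -1.59, adjusted p = 0.0161), or 5.83-fold. DESeq2 without the block gave -2.47 with an adjusted p of 1.79e-06. The drop was seen in all 3 pairs, at -3.73, -1.86 and -2.38 on the log2 scale of the TPM ratio. In bulk RNA, fewer cells with the transcript and less transcript per cell cannot be told apart, and p16Ink4a and p19Arf transcripts are summed here.

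Cdkn2b encodes p15, the INK4 inhibitor that TGF-β signalling is known to raise. It stood at 50.8, 128.1 and 68.1 TPM in siNC and at 14.4, 67.8 and 26.2 TPM in siPkm2. The groups overlapped because siPkm2 replicate 2 lay above siNC replicate 1, yet siPkm2 was lower within each pair, at -1.82, -0.92 and -1.38 on the log2 scale. The unpaired log2 fold change was -1.15 (SE 0.58, edgeR adjusted p = 0.361), at -0.74 without siNC replicate 2 and -1.94 without siPkm2 replicate 2. In the paired fit Cdkn2b fell by 1.32 (SE 0.20, 95% interval -1.81 to -0.83, adjusted p = 0.0158), or 2.50-fold. The ratio of Cdkn2a to Cdkn2b TPM was 0.831, 0.309 and 0.600 in siNC and 0.221, 0.161 and 0.3004 in siPkm2, lower within each pair.

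The other INK4 genes moved less. Cdkn2c (p18), on the same chromosome as Cdkn2a and Cdkn2b but far from them at chr4:109660876-109667189, stood at 39.0, 55.3 and 39.4 TPM in siNC and at 23.8, 32.2 and 25.2 TPM in siPkm2, without overlap. By the TPM ratio its change was the most even of the 8 genes, at -0.71, -0.78 and -0.65 in the pairs. The paired fits on counts were less even, at -0.64 without replicate 1, -0.83 without replicate 2 and -0.73 without replicate 3. The log2 fold change was -0.73 in both fits of edgeR, with an SE of 0.15 and an adjusted p of 0.122 unpaired and an SE of 0.10 and an adjusted p of 0.0144 paired, and DESeq2 without the block gave an adjusted p of 0.0168. Cdkn2c thus fell in the paired fit, by less than 2-fold. Cdkn2d, which encodes p19Ink4d and not p19Arf, lies at chr9:21288410-21291407. It stood at 32.1, 37.8 and 23.2 TPM in siNC and at 15.4, 33.5 and 13.98 TPM in siPkm2, where replicate 2 kept nearly its control level and the groups overlapped. Its paired log2 fold change was -0.63 (SE 0.21, 95% interval -1.16 to -0.10) with an adjusted p of 0.0826 in edgeR. Without replicate 2 in both groups it was -0.92 with an adjusted p of 0.00558.

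Cdkn1a moved in the opposite direction. It encodes p21, which p53 activates and which blocks CDK2. Levels were 157.7, 684 and 161.4 TPM in siNC and 381, 881 and 388 TPM in siPkm2, so that replicate 2 was the highest in both groups and siNC replicate 2 lay above siPkm2 replicates 1 and 3. The means of 334 ± 303 and 550.0 ± 287 TPM (SD, n = 3) therefore overlapped widely, while each pair was higher in siPkm2, by 1.27, 0.37 and 1.26 on the log2 scale. The unpaired log2 fold change was 0.82 (SE 0.62, edgeR adjusted p = 0.549), and it was 1.77 (adjusted p = 0.0888) without siNC replicate 2 and 0.36 (adjusted p = 0.818) without siPkm2 replicate 2. In the paired fit Cdkn1a rose by 1.03 (SE 0.19, 95% interval 0.55 to 1.5, adjusted p = 0.0222), or 2.04-fold, just past a fold of 2, and with upper-quartile scaling the paired value was 0.96. Interferon-stimulated genes were likewise high in replicate 2 of both groups, and Ifit1, an antiviral gene, stood at 1.62, 141.2 and 4.74 TPM in siNC and at 109.1, 331 and 105.5 TPM in siPkm2. The part of that response in the level of Cdkn1a was not tested. A gene annotated on the opposite strand, AC167363.2, overlaps Cdkn1a, with 23 to 138 counts against 3681 to 22872 for Cdkn1a, and the strand setting of the counting is not given in the sources used here.

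**Figure D1:**
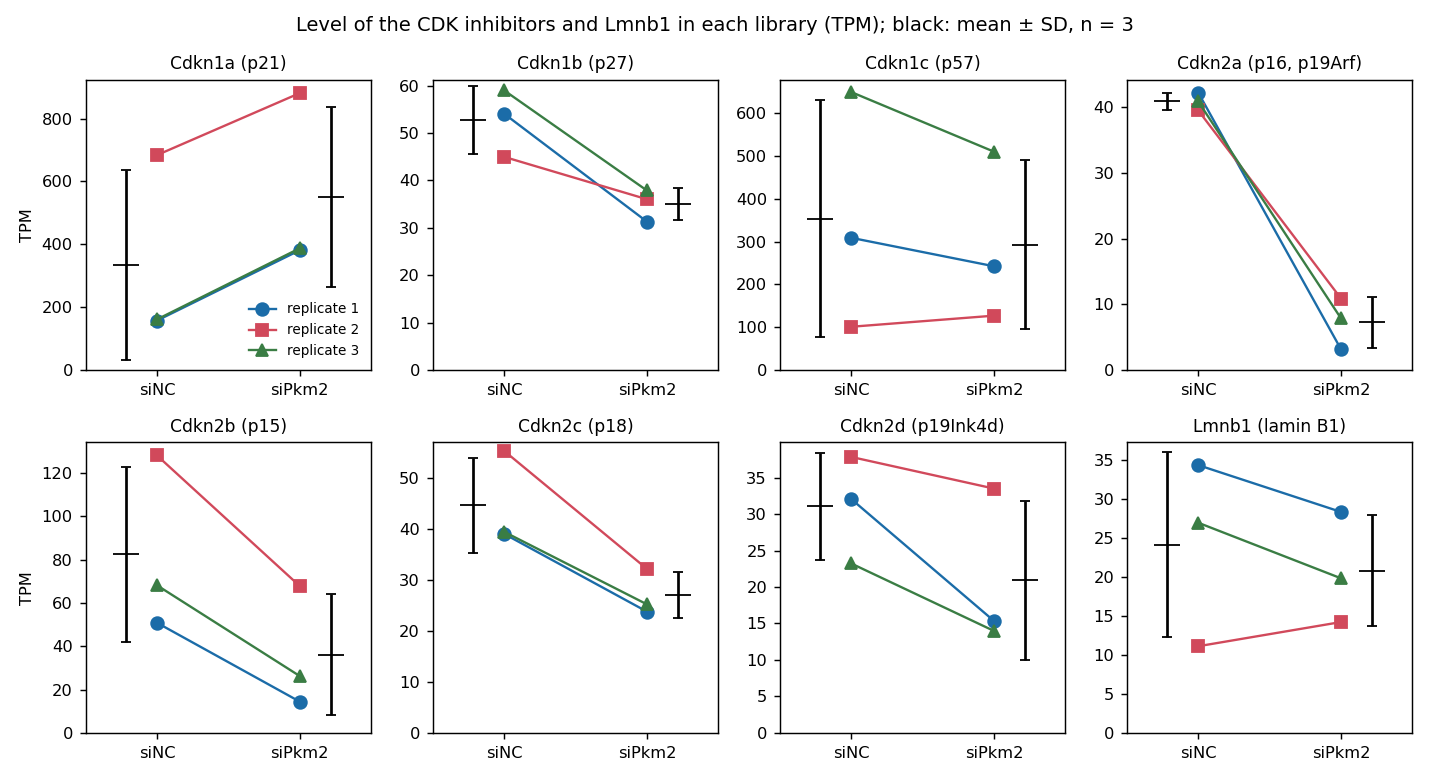
Level of each gene in the 6 libraries, in TPM on a linear axis that starts at 0. Points joined by a line share a replicate number, and black bars give the mean ± SD of each group (n = 3). Cdkn2a lay at 39.5 to 42.2 TPM in siNC and at 3.18 to 10.9 TPM in siPkm2, whereas Cdkn1a and Cdkn1c differed more between replicates than between groups.

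Cdkn1b and Cdkn1c are the other Cip/Kip genes. Cdkn1b, at chr6:134920401-134925513, encodes p27, whose amount is largely set by protein turnover. It stood at 54.1, 45.0 and 59.0 TPM in siNC and at 31.3, 36.1 and 37.9 TPM in siPkm2. The groups did not overlap, although the gap between siNC replicate 2 and siPkm2 replicate 3 was small. In the unpaired fit the log2 fold change was -0.55 (SE 0.17, edgeR adjusted p = 0.196), and in the paired fit Cdkn1b fell by 0.54 (SE 0.12, 95% interval -0.85 to -0.23, adjusted p = 0.0349). Cdkn1c, an imprinted gene at chr7:143458339-143461050, encodes p57, an inhibitor that growth plate chondrocytes need to stop dividing as they mature. It stood at 309, 101.3 and 649 TPM in siNC and at 242, 127.2 and 509.8 TPM in siPkm2, a 6.40-fold range among the controls alone. The paired log2 fold change, fitted on counts, was -0.05 (SE 0.21, 95% interval -0.57 to 0.47, edgeR adjusted p = 0.873). By the TPM ratio, pairs 1 and 3 were lower at -0.35 each and pair 2 was higher at 0.33. An antisense transcript in Cdkn1c, Gm44732, had at most 8 counts.

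Lmnb1, at chr18:56707813-56753424, encodes lamin B1 of the nuclear lamina. Its level was 34.3, 11.1 and 26.9 TPM in siNC and 28.3, 14.2 and 19.8 TPM in siPkm2. Replicate 2 was the lowest of each group, and the groups overlapped. The paired log2 fold change was -0.07 (SE 0.17, 95% interval -0.49 to 0.35, edgeR adjusted p = 0.786), or a fold between 0.714 and 1.27. As for Cdkn1c, pairs 1 and 3 were lower, at -0.28 and -0.44, and pair 2 was higher, at 0.36.

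**Figure D2:**
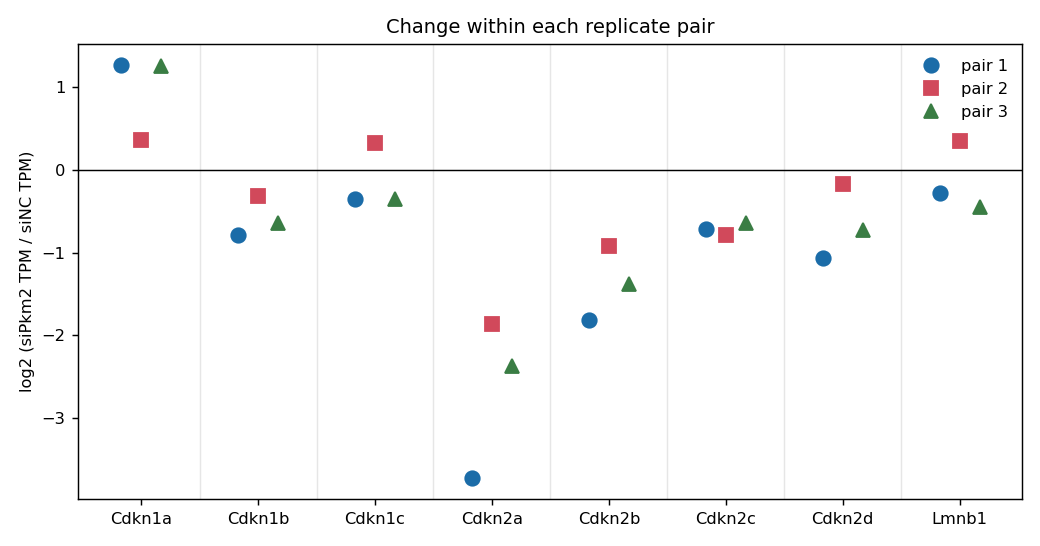
Log2 of the siPkm2 TPM over the siNC TPM within each replicate pair, by gene. Points above 0 are higher in siPkm2. Cdkn1a lay above 0 in all 3 pairs, Cdkn1b and the 4 INK4 genes below 0 in all 3, and Cdkn1c and Lmnb1 changed sign in pair 2.

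A gene was called at a fold over 2 and an adjusted p under 0.05. In the unpaired fit of edgeR, 0 of the 8 genes were called, with or without the fold, against 0.0% of all genes, and 3 of the 8 had an unadjusted p under 0.05 (Cdkn1b, Cdkn2a and Cdkn2c), as had 2690 of the 15269 genes. DESeq2 without the block called Cdkn2a, where 2.79% of all genes were called, and Cdkn2c passed by the adjusted p alone, where 5.38% did. In the paired fit 3 genes were called, Cdkn1a upward and Cdkn2a and Cdkn2b downward, against 5.83% of all genes. By the adjusted p alone 5 of the 8 passed the paired fit, against 23.1% of all genes. Of these, 4 fell (10.8% of all genes did) and 1 rose (12.3%). Groups did not overlap in 3 genes that were lower in siPkm2 (Cdkn1b, Cdkn2a and Cdkn2c), against 12.9% of all genes, and in 0 that were higher, against 9.92%. For these 3 genes the exact two-sided permutation test gave p = 0.1, the smallest value that 3 against 3 libraries allow. Without replicate 2, an alternative added after seeing the data, groups did not overlap in 5 genes that were lower (Cdkn1b and the 4 INK4 genes), against 28.8% of all genes, and in 1 that was higher (Cdkn1a), against 27%.

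The paired calls were lost without replicate 1 or replicate 3 and kept without replicate 2. Without replicate 1 in both groups, or without replicate 3, 0 of the 8 genes passed the paired fit of edgeR. All genes gave 0 calls there as well, and 5 of the 8 genes had an unadjusted p under 0.05 in each case. So had 3937 of 15740 tested genes without replicate 1 and 3598 of 15545 without replicate 3. The adjusted p of Cdkn2a was then 0.0642 and 0.1005, at log2 fold changes of -2.05 and -2.70. Without replicate 2 the paired fit passed all 8 genes, Cdkn1a upward and the other 7 downward, where 39.1% of all genes passed. Cdkn1c then fell by 0.36 (adjusted p = 0.0228) and Lmnb1 by 0.31 (adjusted p = 0.0262). These fits hold 4 libraries and 1 residual degree of freedom. The labels do not say whether the 3 libraries of a group came from separate animals or cultures, so the p-values measure the spread between these libraries.

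**Figure D3:**
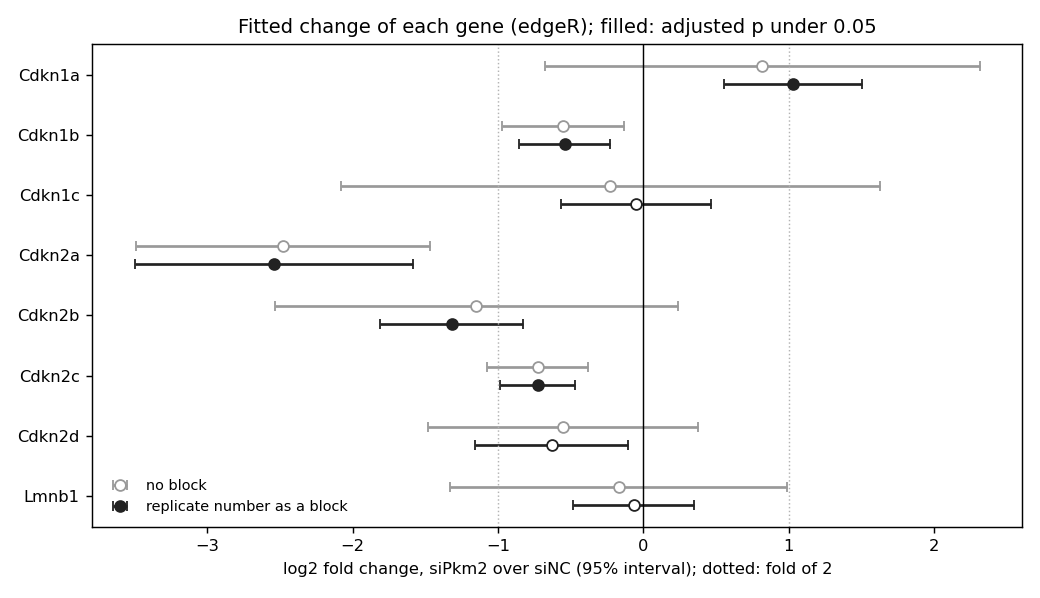
Log2 fold change of siPkm2 over siNC with its 95% interval for each gene, from edgeR without a block (grey) and with the replicate number as a block (black). Filled points have an adjusted p under 0.05, and dotted lines mark a fold of 2. The interval of Cdkn1a spanned -0.68 to 2.32 without the block and 0.55 to 1.5 with it, while Cdkn2a lay at -2.48 and -2.54.

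Levels per length allowed the inhibitors to be compared with each other. In siNC the order of mean TPM was Cdkn1c (353 ± 277), Cdkn1a (334 ± 303), Cdkn2b (82.3 ± 40.5), Cdkn1b (52.7 ± 7.12), Cdkn2c (44.6 ± 9.29), Cdkn2a (40.9 ± 1.35), Cdkn2d (31.0 ± 7.35) and Lmnb1 (24.1 ± 11.9). Cdkn2a and Cdkn2d were the only neighbours in this order that differed by more than both of their SDs. In siPkm2 Cdkn1a came first (550.0 ± 287), followed by Cdkn1c (293 ± 196), Cdkn2b (36.1 ± 28.0), Cdkn1b (35.1 ± 3.39), Cdkn2c (27.1 ± 4.49), Cdkn2d (20.9 ± 10.9), Lmnb1 (20.8 ± 7.10) and Cdkn2a (7.32 ± 3.89). Here Cdkn1c and Cdkn2b, Cdkn1b and Cdkn2c, and Lmnb1 and Cdkn2a were the neighbours that differed by more than both SDs. Cdkn2a was the lowest of the 8 genes in every siPkm2 library and in no siNC library.

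Summed over the inhibitors, the groups overlapped in total level but not in the share of the INK4 genes. The TPM of the 7 inhibitors summed to 685, 1091 and 1041 in siNC and to 712, 1188 and 1009 in siPkm2. The 4 INK4 genes made up 24.0%, 23.9% and 16.5% of that sum in siNC and 7.97%, 12.1% and 7.27% in siPkm2, with no overlap. Cdkn1a alone made up 23.0%, 62.7% and 15.5% in siNC and 53.6%, 74.1% and 38.4% in siPkm2, where the groups overlapped. The shares of Cdkn1b, Cdkn1c and Cdkn2d overlapped as well. The ratio of Cdkn1a to Cdkn2a, the genes of p21 and of p16Ink4a with p19Arf, was 3.73, 17.3 and 3.95 in siNC and 119.9, 80.8 and 49.2 in siPkm2. These shares restate the changes of the single genes and add no test.

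**Figure D4:**
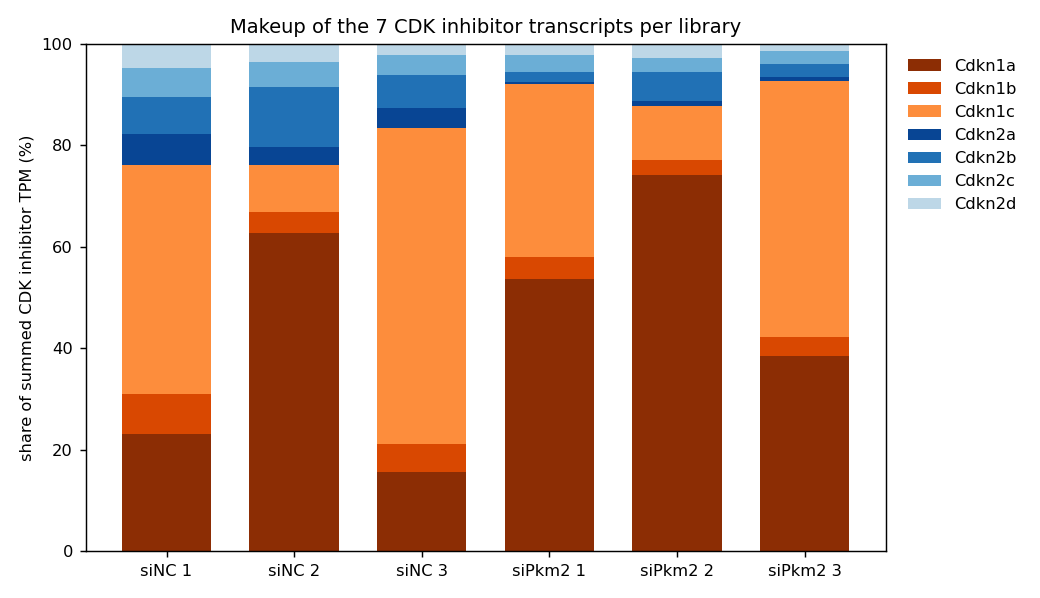
Share of each CDK inhibitor in the summed TPM of the 7 genes, in percent, for each library. Cip/Kip genes are in orange and brown and INK4 genes in blue. The INK4 share lay between 16.5% and 24.0% in siNC and between 7.27% and 12.1% in siPkm2, and Cdkn1a was the largest share in both libraries of replicate 2 and in siPkm2 replicate 1.

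Genes around the inhibitors were counted by role, in lists written with earlier results of these data known. Over the 8 lists, 0 genes passed the unpaired fit of edgeR by the adjusted p, 19 of 119 had an unadjusted p under 0.05 there (16%, against 17.6% of all genes), and DESeq2 passed 1 (0.84%, against 5.38%). The following counts are from the paired fit by the adjusted p, in which 12.3% of all genes rose and 10.8% fell around a median log2 fold change of -0.01. Of 20 cyclins, CDKs and Rb-E2F genes, 2 rose and 2 fell (10.0% each, near the share of all genes) around a median of -0.06. The risers were the CDK2-activating phosphatase gene Cdc25a (0.94, adjusted p = 0.0124) and the cyclin gene Ccne1 (0.72, adjusted p = 0.0142), and those that fell were E2f5 (-0.50, adjusted p = 0.0286) and the cyclin D2 gene Ccnd2 (-0.44, adjusted p = 0.0233). Of 21 proliferation genes, 10 fell (47.6%) and 1 rose (4.8%) around a median of -0.38. The mitotic kinase gene Aurka fell by 1.08 (adjusted p = 0.0122) and Mki67, which marks dividing cells, by 0.95 (adjusted p = 0.0141), whereas the replication gene Mcm3 rose by 0.40 (adjusted p = 0.0358).

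Of p53 and its targets, 5 of 16 rose (31.2%) and 2 fell (12.5%) around a median of 0.46, which was 0.34 in the unpaired fit. Replicate 2 did not always follow the other pairs. Mdm2, named after its values were seen, was higher in siPkm2 in pairs 1 and 3. In pair 2 it was lower, at 199.9 TPM in siNC and 176.3 TPM in siPkm2, whereas Zmat3 was higher there, at 29.8 and 38.6 TPM. Zmat3 (0.96, adjusted p = 0.0266) and Aen (0.78, adjusted p = 0.0380), both activated by p53, rose beside Cdkn1a, and the p53 inhibitor gene Mdm4 (-0.79, adjusted p = 0.0110) and the p53 target Sesn1 (-0.65, adjusted p = 0.0406) fell. Of 15 regulators of the Cdkn2a and Cdkn2b locus, only Suz12 passed (6.7%, against 23.1% of all genes). This subunit of Polycomb repressive complex 2, which silences the locus in young cells, fell by 0.81 (adjusted p = 0.0133). The part of Suz12 in the levels of Cdkn2a and Cdkn2b was not tested. Of 7 genes for p27 turnover and FOXO control, 0 passed, with Foxo1, whose product activates Cdkn1b, highest at 0.40 (adjusted p = 0.0531) and Rnf123, part of a p27 ubiquitin ligase, lowest at -0.33 (adjusted p = 0.0545). The unpaired fit gave 0 of these 7 an unadjusted p under 0.05, and DESeq2 called 0.

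In the nuclear lamina and envelope, 3 of 14 genes rose and 3 fell (21.4% each) around a median of 0.06. Lmna, which encodes lamins A and C, rose by 0.54 (adjusted p = 0.0210) and the lamin-processing gene Icmt by 0.49 (adjusted p = 0.0257), while Tmpo fell by 0.69 (adjusted p = 0.0229) and Syne2 by 0.60 (adjusted p = 0.0450), both of which encode proteins of the nuclear envelope. Of 16 genes of senescence-associated secretion, 4 rose (25.0%) and 0 fell around a median of 0.65, which was 0.29 in the unpaired fit. Il6 rose by 2.62 (adjusted p = 0.0426) and Tnfrsf11b, the gene of the RANKL decoy osteoprotegerin, by 2.002 (adjusted p = 0.0173). Of 10 interferon-stimulated genes, 3 rose (30%), Ifit1 by 3.91 (adjusted p = 0.0445) and Cmpk2 by 3.26 (adjusted p = 0.0161) among them, around a median of 3.26. All 10 were high in siNC replicate 2 as well, as for Ifit1 above, and the median of this list was 1.44 in the unpaired fit.

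**Figure D5:**
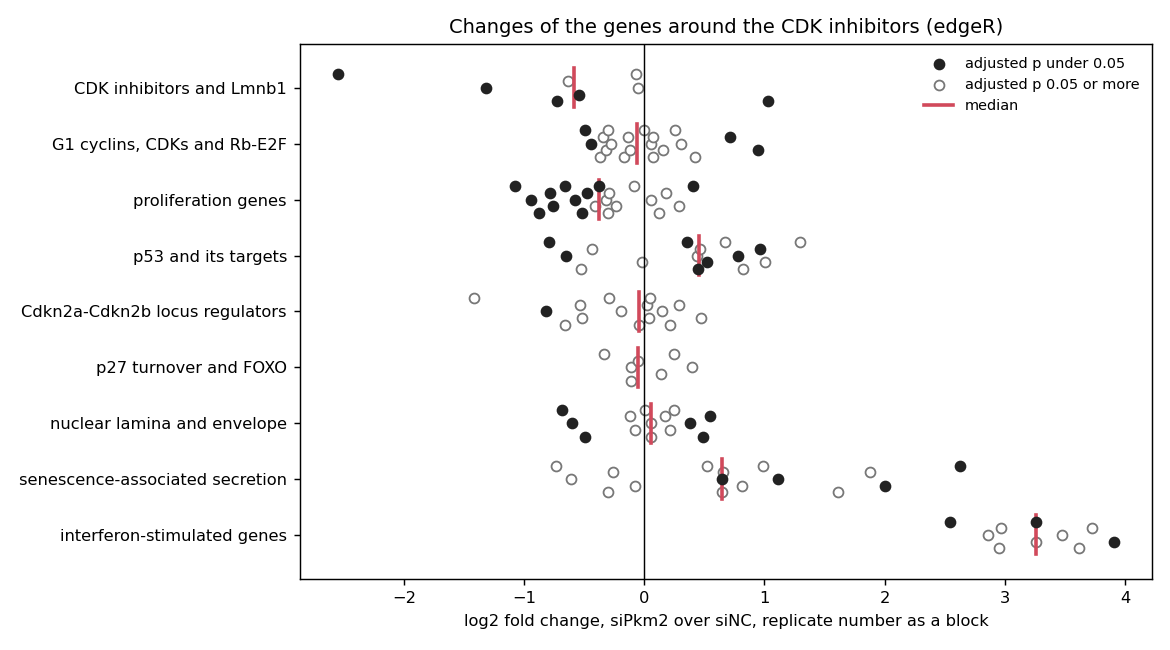
Log2 fold change of siPkm2 over siNC with the replicate number as a block, 1 point per tested gene, for the CDK inhibitors with Lmnb1 and for the 8 lists around them. Filled points have an adjusted p under 0.05 and red lines mark the median of a list. The CDK inhibitors with Lmnb1 had a median of -0.59 and the p53 list a median of 0.46.

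Markers of the labelled cell type were present in every library, with the 10 chondrocyte markers summing to 4027 to 18341 TPM in siNC and 5361 to 14622 TPM in siPkm2. Of these, 2 passed the paired fit, both upward: Prg4, the gene of lubricin (2.15, adjusted p = 0.0271), and the matrilin gene Matn3 (0.86, adjusted p = 0.0206). Fibroblast markers summed to 2426 to 4741 TPM in siNC and 2651 to 6634 TPM in siPkm2, and had a median paired log2 fold change of -0.35. Of these 6 genes Dcn alone passed, rising by 1.28 (adjusted p = 0.0148), against Col1a1 at -0.62 (adjusted p = 0.111) and Thy1 at -0.92 (adjusted p = 0.108), both named after their values were seen. Osteoblast markers summed to 47.6 to 337 TPM in siNC and 45.9 to 138.6 TPM in siPkm2, with a median of -0.39 and Ibsp falling by 1.45 (adjusted p = 0.0278). Macrophage markers summed to 11.4 to 118.0 and 16.8 to 87.7 TPM, 1 of the 4 tested passing (Cd14, 1.35, adjusted p = 0.0432). The defining genes Adgre1 and Ptprc stood at 0.10 TPM or less in every library. Cd68 stood at 2.93 to 92.8 TPM, highest in siNC replicate 2, and Csf1r at 0.32 to 1.27 TPM, both named after their values were seen. Endothelial markers summed to at most 3.15 TPM, with Tek at 1.00 (adjusted p = 0.188) and Vwf at 0.73 (adjusted p = 0.250), and muscle markers to at most 7.39 TPM, with Des rising by 2.46 (adjusted p = 0.0360) and Acta1, named after its values were seen, at -1.57 (adjusted p = 0.0545). The part of such cells in the levels of the inhibitors was not tested.

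The genes whose levels ran closest to an inhibitor over the 6 libraries were found among 9769 genes with a mean of at least 10 CPM, by Pearson's r of log2 CPM. CPM are counts scaled to the library total after its adjustment by the TMM factors of the edgeR fit. For Cdkn1a these were Tnfsf11, the gene of RANKL (r = 0.9995), and the MHC gene H2-Q4 (r = 0.9986), both high in replicate 2. They were Tgfb1i1 and Septin5 for Cdkn1b, Cilk1 and Gatd3a for Cdkn1c, Sipa1 and Dlg4 for Cdkn2b, Alkbh8 and Pstk for Cdkn2c, Vrk3 and Abhd11 for Cdkn2d, and Rab28 and Kdm5c for Lmnb1, at r between 0.9845 and 0.9985. Cdkn2a lay under that level and was not compared. With 6 libraries and this many genes, such values describe the libraries only.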

How the data were processed

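RNA of primary mouse chondrocytes was sequenced in 3 siNC and 3 siPkm2 libraries. The authors deposited estimated counts per gene, not normalized, and TPM, which they scaled to 1 total per library, together with group means and their own fold changes and p-values, which were not used. The submitters' processing notes name mm9 and edgeR, and the aligner, counting tool, strand setting and annotation are not given in the sources used here. Of the 55416 identifiers, 52135 occur in GENCODE M21, which gave positions on GRCm38.

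Counts were rounded and fitted in R 4.3.3 with edgeR 4.0.16 (TMM factors, filterByExpr, quasi-likelihood test, Benjamini-Hochberg adjustment over 15269 genes), with DESeq2 1.42.0 and limma 3.58.1 on log2(TPM + 0.5) as alternatives. The scripts were tested on simulated data. Calls needed a fold over 2 and an adjusted p under 0.05, after the supplementary methods. Groups followed the titles. Same-numbered libraries deviated together across genes (r of 0.716, 0.794 and 0.720, against -0.700 to 0.217 for other numbers), so the replicate number was used as a block in the paired fit. Within a group, libraries differed beyond sampling noise in 52.6% to 73.4% of genes, so none was a duplicate.

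The 8 genes, the lists and the motifs were chosen with earlier results of these data known. All 8 genes were named. From each list, up to 2 genes with the highest and 2 with the lowest paired log2 fold change past the adjusted p were named, or 1 of each where none passed, and for each inhibitor the 2 genes closest to it over the libraries. Col2a1, Adgre1 and Ptprc were named as defining cell type markers. Total counts were 22317065 to 25691096 per library, and errors are the spread between 3 libraries, which includes counting error.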

Additional observations from a re-analysis of the deposited data

How the results depend on the processing

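Over the fitted changes of the 8 genes, 131 alternative values kept their direction and their side of an adjusted p of 0.05, 11 newly passed it, 10 no longer did and 8 changed sign. The sign changes were all of Cdkn1c and Lmnb1 when libraries were left out: Cdkn1c ranged from -0.90 to 0.50 unpaired and from -0.36 to 0.15 with the replicate block (0.063 without replicate 3), and Lmnb1 from -0.53 to 0.28 unpaired and from -0.31 to 0.06 with the block (0.052 without replicate 1 and 0.058 without replicate 3). Of the 8 genes, 0 were called unpaired, 1 by DESeq2 and 3 with the replicate block. The paired count was 5 by the adjusted p alone and 0 to 3 with 1 replicate number left out, 0 without replicate 1 or 3 and 3 without replicate 2, each with 4 libraries. Upper-quartile factors with the block, and limma on log2(TPM + 0.5) with the block, both added after seeing the data, called 2, since Cdkn1a then lay just under a fold of 2. Of the 119 tested genes in the 8 lists, 0 were called unpaired and 0 to 3 with 1 library left out. DESeq2 called 1, where 2.79% of all genes were called, and the block gave 7, where 5.83% of all genes were called. The paired count was 36 by the adjusted p alone, where 23.1% of all genes passed. It was 16 by DESeq2 and 0 to 30 with 1 replicate number left out, the most without replicate 2. For these last settings the share of all genes at the same thresholds is not given, so the counts are no result about the lists. The cause of these differences was not tested. Pkm stayed between -2.80 and -2.34 with 1 library left out, at -2.50 by DESeq2 (adjusted p = 4.82e-11) and -2.53 with the block, and between -2.63 and -2.39 with the block and 1 replicate number left out (-2.57 without replicate 3). Groups did not overlap in 3 of the 8 genes, or in 6 without replicate 2, an alternative added after seeing the data in which 28.8% of all genes were lower and 27% higher without overlap. Other factors and filters on low counts kept the unpaired count at 0. The lowest count of the 8 genes in any library was 30 (Cdkn2a), and the limit that depth sets was not tested.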

Other observations

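By the size of the TPM ratio, replicate 2 had the smallest change of the 3 pairs in 6 of the 8 genes, the exceptions being Cdkn2c and Lmnb1. Cdkn2c changed by -0.78 on the log2 scale in that pair, and Lmnb1 was higher there by 0.36. Among the 6, Cdkn1c was opposite in sign there, at 0.33 against -0.35 in pairs 1 and 3. The order depends on the scale. For Cdkn2c the paired fits on counts gave -0.64 without replicate 1, -0.83 without replicate 2 and -0.73 without replicate 3. The count was made after the values were seen, and it has no test.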
